A study of Mus musculus with 24 samples.

Results

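Transcripts that mark neurons, oligodendrocytes, astrocytes and vascular cells were followed through RNA-seq libraries of sorted hippocampal microglia, as a measure of material from the other cells of the brain. The set holds 33 genes out of the 53700 gene IDs counted. They were chosen by symbol as cell type markers and not by a cut on their values, but with earlier results of these data known. The set has 6 neuron markers (Snap25, Syt1, Rbfox3, Tubb3, Meg3 and Nefl), 8 markers of the oligodendrocyte lineage (Mbp, Mog, Mag, Mobp, Cnp, Olig1, Olig2 and Pdgfra), 8 astrocyte markers (Aldoc, Gfap, Aqp4, Slc1a2, Slc1a3, Sox9, Gja1 and Aldh1l1) and 11 markers of endothelial and mural cells (Cldn5, Kdr, Flt1, Pecam1, Cdh5, Tek, Vtn, Rgs5, Acta2, Ly6c1 and Itm2a). All 33 were present in the deposited counts, and 30 passed the filter on low counts. Meg3, Olig2 and Tek did not pass and are given by their levels alone.

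The mice were male APPswe/PSEN1dE9 animals (tg), which carry a Swedish-mutant amyloid precursor protein and an exon-deleted presenilin 1 as transgenes and develop amyloid plaques, or control mice (wt), at 4, 6 and 9 months of age. Cells were isolated from the hippocampus with enzymes in the cold and sorted as PI-negative, DRAQ5-positive, CD11b-high, CD45-intermediate and CD49d-negative, a gate for intact nucleated microglia, and low-input libraries of their total RNA were sequenced in bulk. There were 4 libraries in each of the 5 groups wt at 4 months, tg at 4 months, wt at 6 months, tg at 6 months and wt at 9 months, and 3 in tg at 9 months, after leaving out tg 9 months replicate 4, which held 6325 counts. The promoter of the transgenes is not given in the labels, nor is it said whether libraries came from separate mice, so a p-value here reflects only how far libraries of one group lie apart. The replicate label 2_4 of a 9 month wt library is not explained in the labels.

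Microglia are the resident macrophages of the brain and take up debris, synaptic material and myelin. A bulk count does not say whether a marker transcript came from another brain cell or was made by the sorted cells themselves. Nor does it say how RNA of other cells came into such a library. Fewer cells of a type and less RNA per cell cannot be told apart. Neurons are marked by genes of the synapse and of the neuronal cytoskeleton, oligodendrocytes by genes of the myelin sheath, astrocytes by transporters and enzymes that clear glutamate and support neurons, and vessels by endothelial receptors and junction proteins and by contractile proteins of mural cells.

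The 23 libraries held 8147240 to 14198506 counts over 14129 to 18821 detected genes. Levels are given as CPM, that is counts scaled to the library size with TMM factors, and 3 counts in a library corresponded to 0.204 to 0.332 CPM, below which a gene is called under the floor here. The 11 microglial markers checked (P2ry12, Tmem119, Cx3cr1, Csf1r, Sall1, Fcrls, Siglech, Trem2, C1qa, Itgam and Ptprc) were counted in every library and summed to between 37790 and 67070 CPM, as the label microglia asks. App counts averaged 126 ± 15.5 CPM for tg against 121 ± 20.7 CPM for wt at 4 months (SD, n = 4 each) with overlapping libraries, so this gene gave no check of the genotype in these cells. Choroid plexus markers (7 genes, led by Ttr and Enpp2) summed to 2.64 CPM in wt 6 months replicate 3 and to 3414 CPM in wt 9 months replicate 3. That range is wider than the range of any class of the 33 genes, and its part in the results below was not tested.

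The 33 transcripts together made up a small share of each library. Their summed level lay between 455 CPM in wt 6 months replicate 3 and 950 CPM in wt 6 months replicate 2, with a median of 702 CPM, and they took 0.0452% to 0.106% of all counts. Both extremes of the summed CPM came from wt at 6 months, while the highest share of counts was that of tg 6 months replicate 3. The 6 most abundant genes (Slc1a3, Cnp, Mbp, Pecam1, Aldoc and Mag) supplied 74.7% to 93.5% of that sum. The other 27 genes summed to between 45.1 CPM in wt 4 months replicate 4 and 238 CPM in tg 6 months replicate 3.

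**Figure D1:**
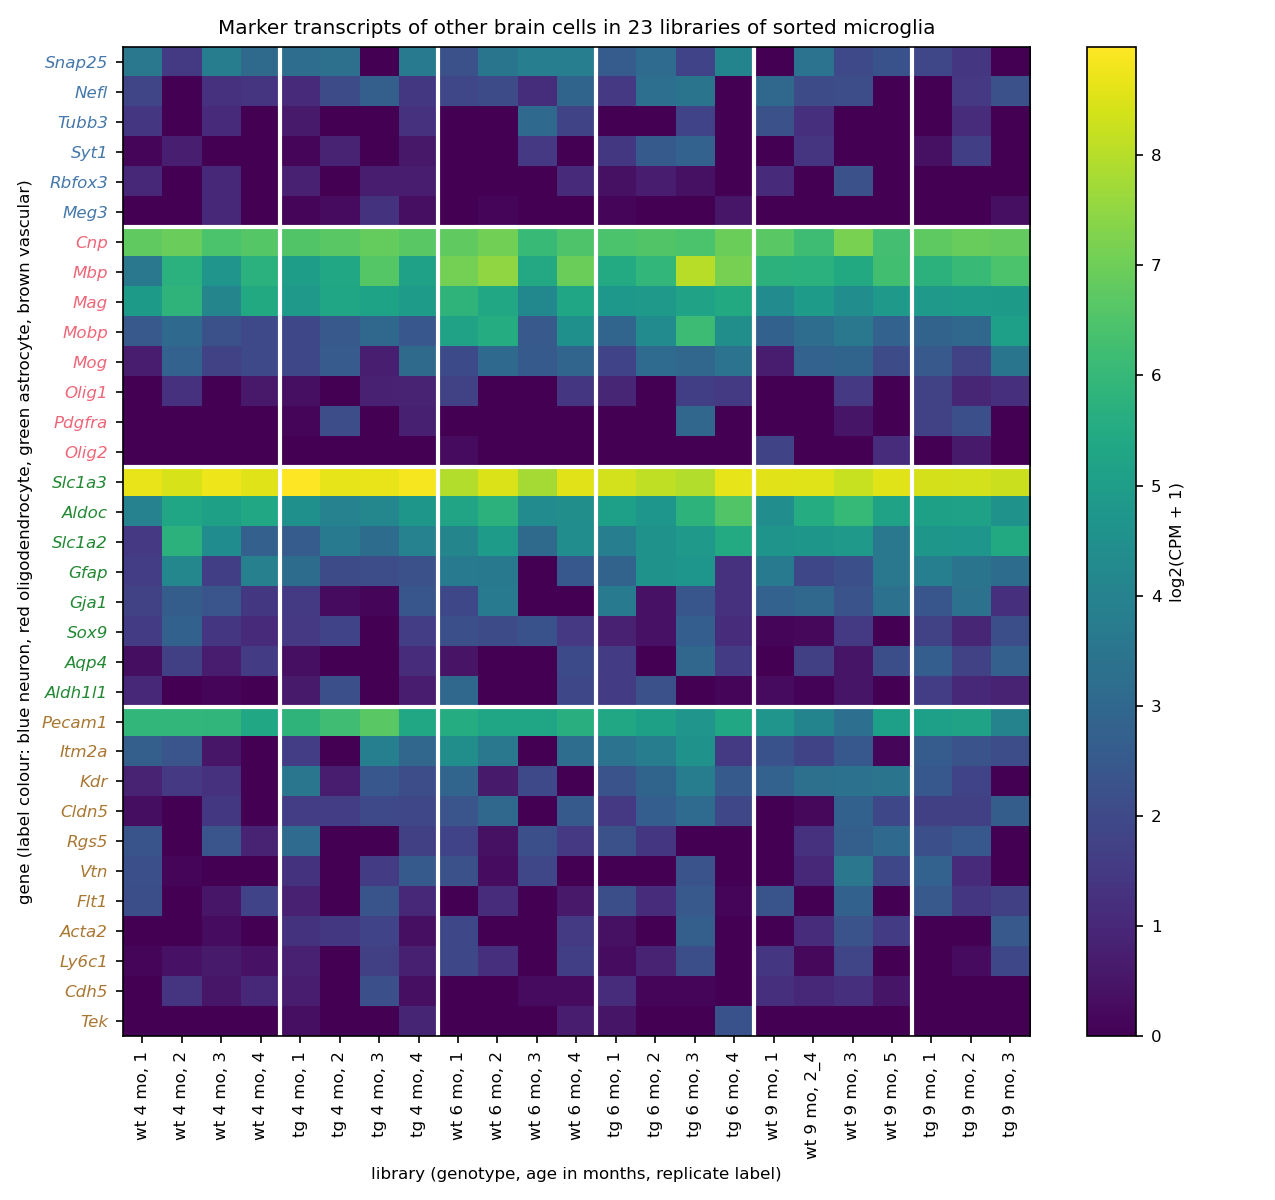
Level of each of the 33 marker transcripts (rows, by class and falling mean level) in each of the 23 libraries (columns, by group), as log2(CPM + 1) on the colour scale. Slc1a3 and Cnp are bright in every column, while Tubb3, Pdgfra, Olig2 and Tek are at 0 in 13, 16, 19 and 18 of the 23 libraries.

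Most of these genes were present in some libraries and at 0 in others. Over the 33 genes and 23 libraries there were 759 values, of which 192 were 0 counts, 30 were 1 or 2 counts, 63 were 3 to 9 counts and 474 were 10 counts or more. A count of 0 allows a level up to the floor of 3 counts, which covers counting error only. There were 9 genes that were never at 0: Mbp, Mog, Mag, Mobp, Cnp, Aldoc, Slc1a2, Slc1a3 and Pecam1. Tubb3, a tubulin of neurons, was at 0 in 13 libraries and reached 71 counts (7.49 CPM) in wt 6 months replicate 3. Syt1, the calcium sensor of synaptic vesicle release, was at 0 in 11 libraries and reached 56 counts in tg 6 months replicate 3. Olig2, a transcription factor of the oligodendrocyte lineage, was at 0 in 19 libraries and had 26 counts in wt 9 months replicate 1. Tek, the endothelial angiopoietin receptor, was at 0 in 18 and had 34 counts in tg 6 months replicate 4. Meg3, a long non-coding RNA abundant in neurons, was at 0 in 14 libraries and had at most 17 counts.

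The spread between libraries set a few genes apart. The coefficient of variation over the 23 libraries had a median of 102% for the 33 genes, and it was 7.26% to 34.1% for the 11 microglial markers. Only 3 of the 33 genes lay within the range of the microglial markers. These were Cnp at 18.7%, Slc1a3 at 19.9% and Mag at 33.2%. Mbp, at 75.2%, and Pecam1, at 49.3%, spread more widely at levels of 76.3 and 42.2 CPM on average, so the spread was not set by the level alone.

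**Figure D2:**
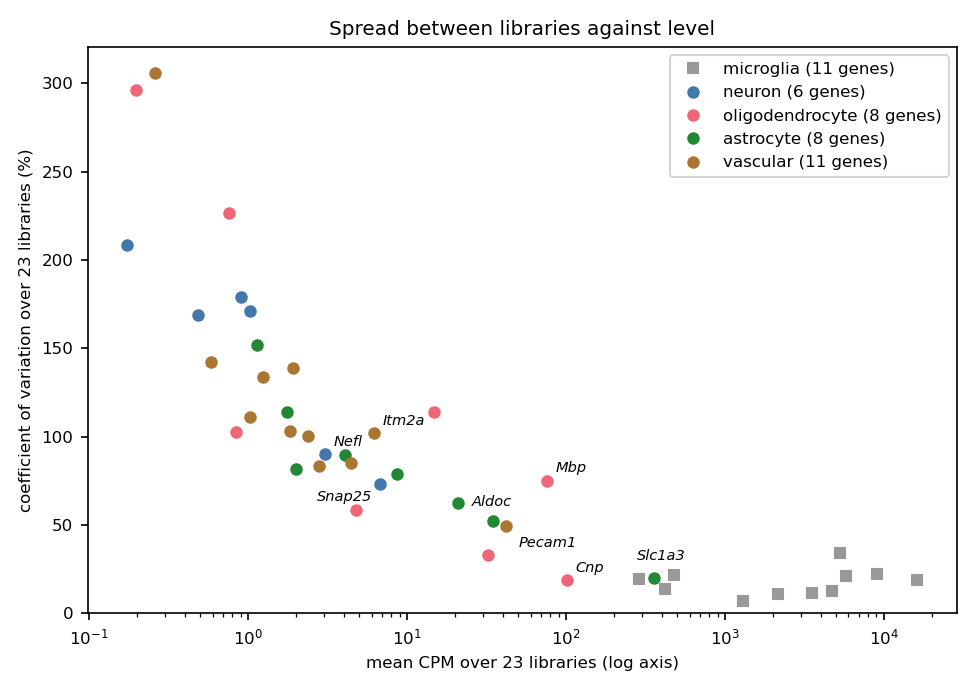
Coefficient of variation over 23 libraries (y axis, %) against mean CPM (x axis, log scale) for the 33 marker genes by class (circles) and for 11 microglial markers (grey squares). Cnp (18.7%) and Slc1a3 (19.9%) sit at the height of the microglial markers, and Mbp (75.2%) lies well above them.

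Levels of different genes were compared per kilobase of exon, with gene lengths from GENCODE vM21, an annotation of another build than the files. On this scale Slc1a3 stood first with 41.8 CPM per kb and Cnp second with 28 CPM per kb. Aldoc followed at 10.6, Mbp at 9.01, Mag at 7.94 and Pecam1 at 6.78 CPM per kb. The highest neuron marker was Snap25 at 0.995 CPM per kb, in place 13 of 33. The lowest was Meg3, at 0.00967 CPM per kb.

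The neuron markers had the lowest sum of the 4 classes. This rank depends on the genes listed, since 12 further neuron genes had a median sum of 32.2 CPM and 11 further oligodendrocyte genes 30.25 CPM. Their 6 genes summed to between 2.57 CPM in wt 4 months replicate 2 and 23.8 CPM in wt 6 months replicate 3, with a median of 11.7 CPM. Group means of the sum were 11.4 ± 7.03 CPM in wt and 12.1 ± 3.70 CPM in tg at 4 months, 16.9 ± 8.45 and 17.1 ± 6.01 CPM at 6 months (SD, n = 4 each), and 10.3 ± 4.99 CPM in wt (n = 4) against 4.63 ± 1.98 CPM in tg (n = 3) at 9 months. The ranges of tg and wt overlapped at each age.

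Snap25, a SNARE protein of the presynaptic terminal, was the leading neuron transcript. At 4 months it measured 11, 1.89, 13.2 and 7.52 CPM in wt and 8.34, 9.06, 0 and 11.9 CPM in tg. The 6 month levels were 3.65, 10.3, 13.3 and 13.4 CPM in wt and 5.05, 7.80, 2.52 and 15.6 CPM in tg. The 9 month levels were 0, 9.67, 2.92 and 3.82 CPM in wt and 2.75, 1.69 and 0 CPM in tg. The tg libraries of 9 months were all low, and the genotypes overlapped at all 3 ages. Its log2 fold change of tg over wt at 9 months was -1.47 ± 1.29 (SE, edgeR, adjusted p = 1).

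Nefl, the light chain of neurofilaments, was at 0 in 4 libraries from 4 different groups. It measured 2.64, 0, 1.44 and 1.54 CPM in wt and 1.12, 3.12, 5.56 and 1.73 CPM in tg at 4 months. In the 6 month libraries there were 2.74, 3.19, 1.27 and 6.40 CPM in wt and 1.83, 8.68, 9.96 and 0 CPM in tg. In the 9 month libraries there were 6.93, 3.27, 3.32 and 0 CPM in wt and 0, 1.79 and 3.68 CPM in tg. The library without Nefl at 6 months in tg, replicate 4, was the library with the most Snap25 of all, and over the 23 libraries Snap25 and Nefl had a Pearson r of -0.22 (Spearman rho -0.26, permutation p = 0.32 and 0.22, adjusted over 28 pairs of leading genes 0.53 and 0.40).

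Rbfox3, which encodes the nuclear antigen NeuN, was low throughout and at 0 in 12 libraries. At 9 months it measured 1.09, 0, 3.73 and 0 CPM in wt and was at 0 in all 3 libraries of tg. The mean of wt was at least 4.06-fold higher than that of tg, which was taken at the floor of 3 counts per library. That mean rested mainly on wt 9 months replicate 3 with 55 counts, without which wt was at least 1.23-fold higher, and 2 wt libraries were at 0 like those of tg, so the groups overlapped. The edgeR difference had an unadjusted p of 0.028 and an adjusted p of 0.98. Among 12 further neuron genes, of which 8 were tested, Camk2a, a kinase of excitatory synapses, had the highest mean with 19.6 CPM, and Celf4, an RNA-binding protein of neurons, followed with 9.16 CPM. Both were counted in every library, and tg 6 months replicate 3 had the highest sum over the 12 genes, 110 CPM against a median of 32.2 CPM.

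The oligodendrocyte class held a steady component and a variable one. The 8 genes summed to between 132 CPM in wt 4 months replicate 3 and 464 CPM in tg 6 months replicate 3. Group means were 183 ± 49.7 CPM in wt and 197 ± 41.5 CPM in tg at 4 months, 292 ± 116 and 294 ± 136 CPM at 6 months (SD, n = 4 each), and 193 ± 24.5 CPM in wt (n = 4) and 233 ± 34.6 CPM in tg (n = 3) at 9 months.

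Cnp, a phosphodiesterase of myelin-forming cells, varied little. It measured 110, 120, 84.8 and 98.2 CPM in wt and 92.7, 103, 114 and 102 CPM in tg at 4 months. At 6 months it measured 110, 134, 67.5 and 90.1 CPM in wt and 85.8, 91.5, 84.9 and 124 CPM in tg. The 9 month levels were 102, 73.0, 144 and 76.9 CPM in wt and 106, 117 and 112 CPM in tg. No group stood apart, and its log2 fold changes of tg over wt were -0.01 ± 0.21, -0.06 ± 0.21 and 0.17 ± 0.23 (SE) at 4, 6 and 9 months (edgeR, adjusted p = 1 each). Mag, an adhesion protein of the inner myelin membrane, ranged from 16.1 to 56.8 CPM with a median of 29.1 CPM.

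Mbp, the myelin basic protein that compacts the sheath, varied from 11 to 258 CPM. At 4 months it measured 11, 52.2, 25.0 and 52.8 CPM in wt and 31.9, 39.5, 96.3 and 34.3 CPM in tg. The 6 month levels were 136, 178, 41.6 and 123 CPM in wt and 44.3, 60.0, 258 and 141 CPM in tg. In the 9 month libraries there were 54.0, 52.8, 43.4 and 75.1 CPM in wt and 53.6, 65.5 and 85.2 CPM in tg. The libraries above 100 CPM were all of 6 months, 3 of 4 in wt and 2 of 4 in tg, and the others of that age lay among the libraries of 4 and 9 months. The highest, tg 6 months replicate 3, also had the lowest summed microglial markers (37790 CPM) and the lowest total (8147240 counts), whose part in the result was not tested.

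Mobp, a second structural myelin protein, had the same kind of pattern at a lower level and was chosen for a full description after its values were seen. It measured 4.68, 7.38, 3.65 and 2.99 CPM in wt and 2.81, 4.63, 7.13 and 4.47 CPM in tg at 4 months. In the 6 month libraries there were 35.6, 46.6, 4.75 and 21.6 CPM in wt and 6.67, 19.1, 70.3 and 20.7 CPM in tg. At 9 months it measured 5.94, 8.25, 11.1 and 6.01 CPM in wt and 6.34, 7.05 and 32.8 CPM in tg. The library of wt at 6 months that stayed low, replicate 3, was also the one with low Mbp.

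Pdgfra, the receptor that marks oligodendrocyte precursors and is also used as a fibroblast marker, was found mostly in tg libraries. It was at 0 in all 4 wt libraries at 4 months and all 4 at 6 months, and wt 9 months replicate 3 alone among wt had counts (6, or 0.407 CPM). In tg it measured 0.0937, 3.32, 0 and 0.711 CPM at 4 months, 0, 0, 6.90 and 0 CPM at 6 months, and 2.43, 3.57 and 0 CPM at 9 months. The tg mean was at least 3.7-fold higher than wt at 4 months and at least 5.45-fold higher at 6 months, against the floor of 3 counts per library. The ranges overlapped at each age, since every tg group also held libraries at 0. The unadjusted p from edgeR was 0.033 at 4 months, 0.025 at 6 months and 0.12 at 9 months, and the adjusted p was 1, 0.80 and 1. At 4 months the bound rested on tg replicate 2, without which the tg mean was 0.268 CPM, under the floor of 0.279 CPM, and no bound remained. At 6 months the value came from tg replicate 3 alone, and without it Pdgfra was at 0 in both genotypes. The 4 fibroblast markers Col1a1, Col1a2, Dcn and Lum failed the filter, each at 0 in at least 20 of 23 libraries. Summed with Pdgfra they were highest in the same library, at 8.32 CPM.

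Among 11 further oligodendrocyte genes, all tested, Mal, a lipid raft protein of myelin, averaged 11.8 CPM and reached 35.5 CPM, and Cldn11, a tight junction protein of myelin, averaged 6.497 CPM. Between 4 and 6 months 10 of the 11 genes had a positive fitted log2 fold change in wt and 7 of 11 in tg. Of all 15852 tested genes 50.4% and 50.2% did. The medians were 1.63 and 0.99, where that of all tested genes was 0 in both. None of the 11 had an adjusted p under 0.05 in these 2 comparisons (edgeR), and 1 in wt and 1 in tg had an unadjusted p under 0.05. The direction was not particular to 6 months. From 4 to 9 months 10 of 11 were higher in wt and 10 of 11 in tg, with medians of 0.91 and 0.80.

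The astrocyte class was dominated by 1 gene. Its 8 genes summed to between 249 CPM in wt 6 months replicate 3 and 544 CPM in tg 4 months replicate 1. Group means were 459 ± 28.3 CPM in wt and 486 ± 53.9 CPM in tg at 4 months, 370.2 ± 103 and 415 ± 84.0 CPM at 6 months (SD, n = 4 each), and 435 ± 24.5 CPM in wt (n = 4) and 411 ± 17.2 CPM in tg (n = 3) at 9 months.

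Slc1a3, the glutamate transporter GLAST, was the most abundant of all 33 genes in every group. At 4 months it measured 410.3, 343, 435 and 375 CPM in wt and 505, 401, 415 and 466 CPM in tg. At 6 months it measured 244, 360.4, 218 and 386 CPM in wt and 328, 279, 245 and 396 CPM in tg. The 9 month levels were 384, 370, 297 and 370 CPM in wt and 340.5, 326 and 309 CPM in tg. The genotypes overlapped at each age, while all tg libraries of 6 and 9 months lay below the lowest tg library of 4 months. The library that was highest for many other markers, tg 6 months replicate 3, was among the lowest for Slc1a3.

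Aldoc, a glycolytic enzyme enriched in astrocytes, ranged from 14.9 to 91.7 CPM. It measured 15.0, 38.7, 33.3 and 39.7 CPM in wt and 21.8, 14.9, 16.7 and 26.2 CPM in tg at 4 months. The 6 month levels were 37.4, 54.0, 19.2 and 20.8 CPM in wt and 32.2, 25.2, 54.7 and 91.7 CPM in tg. In the 9 month libraries there were 20.2, 46.3, 64.3 and 35.1 CPM in wt and 33.6, 34.4 and 23 CPM in tg. The genotypes overlapped at all 3 ages. The genotype difference at 6 months exceeded that at 4 months by 1.30 ± 0.59 (log2, SE) with an unadjusted p of 0.039 and an adjusted p of 1 (edgeR).

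The other astrocyte genes were sparser. Slc1a2, the main glutamate transporter GLT-1 of mature astrocytes, ranged from 1.79 CPM in wt 4 months replicate 1 to 53.2 CPM in wt 4 months replicate 2, so the extremes came from the same group. Gfap, the intermediate filament of astrocytes, had a median of 7.93 CPM, was at 0 in 1 library and reached 25.1 CPM in tg 6 months replicate 3. Aqp4, the water channel of astrocyte endfeet, was at 0 in 6 libraries and reached 6.90 CPM in the same tg library. Gja1 (connexin 43), Sox9 (a glial transcription factor) and Aldh1l1 (a folate enzyme) averaged 4.08, 2.01 and 1.14 CPM. Among 12 further astrocyte genes, all tested, Glul, the glutamine synthetase, averaged 643 CPM with a range of 471 to 826 CPM, and Clu, the lipoprotein clusterin, averaged 37.5 CPM with a range of 8.29 to 105 CPM.

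The vascular class consisted of Pecam1 and a group of low genes. The 11 genes summed to between 32.1 CPM in wt 9 months replicate 2_4 and 138 CPM in tg 4 months replicate 3. Group means were 65.3 ± 14.0 CPM in wt and 91.4 ± 32.5 CPM in tg at 4 months, 66.5 ± 18.1 and 67.0 ± 13.7 CPM at 6 months (SD, n = 4 each), and 47.7 ± 13.1 CPM in wt (n = 4) and 47.9 ± 12.8 CPM in tg (n = 3) at 9 months.

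Pecam1, the adhesion molecule CD31 of endothelial and some blood-derived cells, was counted in every library. At 4 months it measured 60.2, 60.9, 59.5 and 40.7 CPM in wt and 57.0, 74.8, 103 and 40.1 CPM in tg. In the 6 month libraries there were 46.6, 38.1, 37.5 and 49.0 CPM in wt and 41.2, 33.6, 24.7 and 40.6 CPM in tg. At 9 months it measured 24.7, 15.6, 8.62 and 32.8 CPM in wt and 32.4, 34.8 and 15.3 CPM in tg. All libraries of 9 months lay below all libraries of 4 months, in both genotypes.

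Itm2a, a membrane protein enriched in brain endothelium, ranged from 0 to 23.2 CPM. It measured 5.62, 4.12, 0.442 and 0 CPM in wt and 2.06, 0, 13.6 and 6.90 CPM in tg at 4 months. At 6 months it measured 20.6, 11.1, 0 and 8.29 CPM in wt and 9.68, 12.9, 23.2 and 1.88 CPM in tg. The 9 month levels were 3.76, 2.60, 4.54 and 0.109 CPM in wt and 5.18, 3.95 and 3.39 CPM in tg. High libraries occurred in both genotypes at 6 months, beside 1 wt library at 0, and tg 4 months replicate 3 was high as well (13.6 CPM).

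Cdh5, the cadherin of endothelial junctions, and Kdr, the VEGF receptor 2, had lower values in tg than in wt at 9 months with no overlap. Cdh5 measured 1.39, 1.04, 1.29 and 0.437 CPM in wt and 0 in all 3 tg libraries at 9 months, so wt was at least 3.5-fold higher. At 4 months it measured 0, 1.54, 0.442 and 0.997 CPM in wt and 0.656, 0, 3.56 and 0.304 CPM in tg. At 6 months it was at 0.211 CPM or less in the wt libraries and measured 1.18, 0.0877, 0.11 and 0 CPM in tg. These are 0 to 41 counts per library, and most of the values of 6 months lie under the floor.

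Kdr measured 6.14, 8.85, 9.16 and 10.1 CPM in wt and 4.54, 2.54 and 0 CPM in tg at 9 months. At 4 months it measured 0.851, 1.80, 1.44 and 0 CPM in wt and 10.6, 0.604, 4.43 and 3.35 CPM in tg. The 6 month levels were 6.59, 0.550, 2.95 and 0 CPM in wt and 3.87, 6.40, 12.6 and 4.86 CPM in tg. The means were thus higher in tg at 4 and 6 months and higher in wt at 9 months. Cdh5 and Kdr, both endothelial, were the 2 genes of the class with an unadjusted p under 0.05 for a change of the genotype difference between ages. For Cdh5 the unadjusted p was 0.014 from 4 to 9 months and 0.008 from 6 to 9 months, and for Kdr it was 0.032 from 4 to 9 months (edgeR, adjusted p = 1, 0.86 and 1).

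The remaining vascular genes were low. Cldn5, the tight junction protein of the blood-brain barrier, averaged 2.80 CPM, and Flt1, the VEGF receptor 1, averaged 1.83 CPM. The mural genes Rgs5, a regulator of G-protein signalling in pericytes, and Acta2, the smooth muscle actin, averaged 2.40 and 1.24 CPM. Vtn, vitronectin, made by pericytes in the brain, averaged 1.93 CPM. Ly6c1 averaged 1.03 CPM and is uncertain, because 32.8% of the 50-base words of its annotated transcripts also occur in other genes, 21.5% in Ly6c2, a monocyte marker. Among 16 further vascular genes 8 were tested. Cd34, an antigen of endothelium and of blood progenitors, averaged 446 CPM with a range of 339.9 to 650.2 CPM, and Slc2a1, the glucose transporter of the barrier, averaged 71.2 CPM. The endothelial and mural genes Tie1, Emcn, Myh11, Kcnj8, Abcc9 and Notch3 were at 0 in 19 to 22 of 23 libraries, and Erg was at 0 in all 23.

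**Figure D3:**
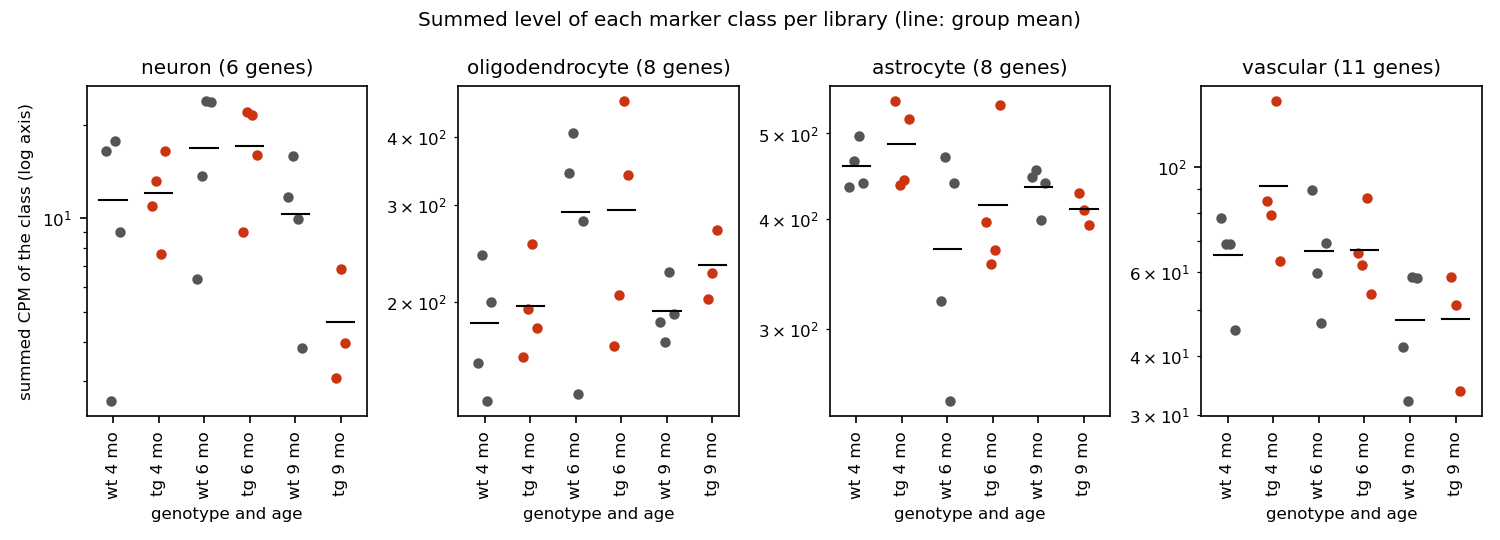
Summed CPM of the 6 neuron, 8 oligodendrocyte, 8 astrocyte and 11 vascular markers in each library (points, y axis on a log scale) by genotype and age, with the group mean as a line (grey wt, red tg). Genotypes overlap in every panel and age, and the 6 month groups hold the highest oligodendrocyte sums (406 CPM in wt, 464 CPM in tg).

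Whether amyloid genotype moved these transcripts was asked by comparing tg with wt at each age. By edgeR's quasi-likelihood test with Benjamini-Hochberg adjustment over 15852 genes, none of the 30 tested markers had an adjusted p under 0.05 at 4, 6 or 9 months, and neither had any other gene (0% of all genes tested at each age). DESeq2 and limma-voom also called none of the 30 for genotype. Of all genes DESeq2 called 6, 34 and 19 at 4, 6 and 9 months, and limma-voom called 11 at 9 months. At an unadjusted p under 0.05 there was 1 of 30 at 4 months (Pdgfra), where 2.78% of all genes passed, 1 of 30 at 6 months (Pdgfra), where 6.19% passed, and 2 of 30 at 9 months (Rbfox3 and Cdh5, both lower in tg), where 5.02% passed. These counts lie near the share of all genes.

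Libraries of tg and wt did not overlap for 2 markers at 4 months, Acta2 and Cldn5, both higher in tg, against 2.83% of all genes tested. No marker separated at 6 months, against 2.49%. At 9 months 3 markers did, Aldh1l1 higher and Cdh5 and Kdr lower in tg, against 5.85%. Fitted directions were mixed. At 4 months 17 of 30 markers were higher in tg with a median log2 fold change of 0.17, at 6 months 20 of 30 with a median of 0.20, and at 9 months 17 of 30 with a median of 0.21, where the median of all genes was 0 at each age.

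By class, the fitted direction differed between ages for the vascular, astrocyte and neuron markers and was positive at each age for oligodendrocyte markers. Of the 10 tested vascular markers 9 were higher in tg at 4 months (median log2 fold change 1.15), 6 at 6 months (0.20) and 4 at 9 months (-0.16). Of the 8 astrocyte markers 2, 6 and 5 were higher in tg (medians -0.84, 0.44 and 0.51). Of the 7 tested oligodendrocyte markers 4, 5 and 7 were higher (medians 0.02, 0.10 and 0.52), and of the 5 tested neuron markers 2, 3 and 1 (medians -0.03, 0.13 and -1.47). None of these individual differences passed the test, and the genes of a class were measured in the same libraries. The further lists shared some of these directions and not others. At 4 months 5 of 8 further vascular and 2 of 12 further astrocyte genes were higher in tg (medians 0.19 and -1.18, the same signs). At 6 months the further oligodendrocyte, astrocyte and vascular genes had medians of -0.23, -0.08 and -0.09, against positive medians above. At 9 months the further astrocyte median was -0.05, also of the opposite sign. In the same comparison 6 of 11 further oligodendrocyte and 4 of 8 further neuron genes were higher (medians 0.09 and -0.05).

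**Figure D4:**
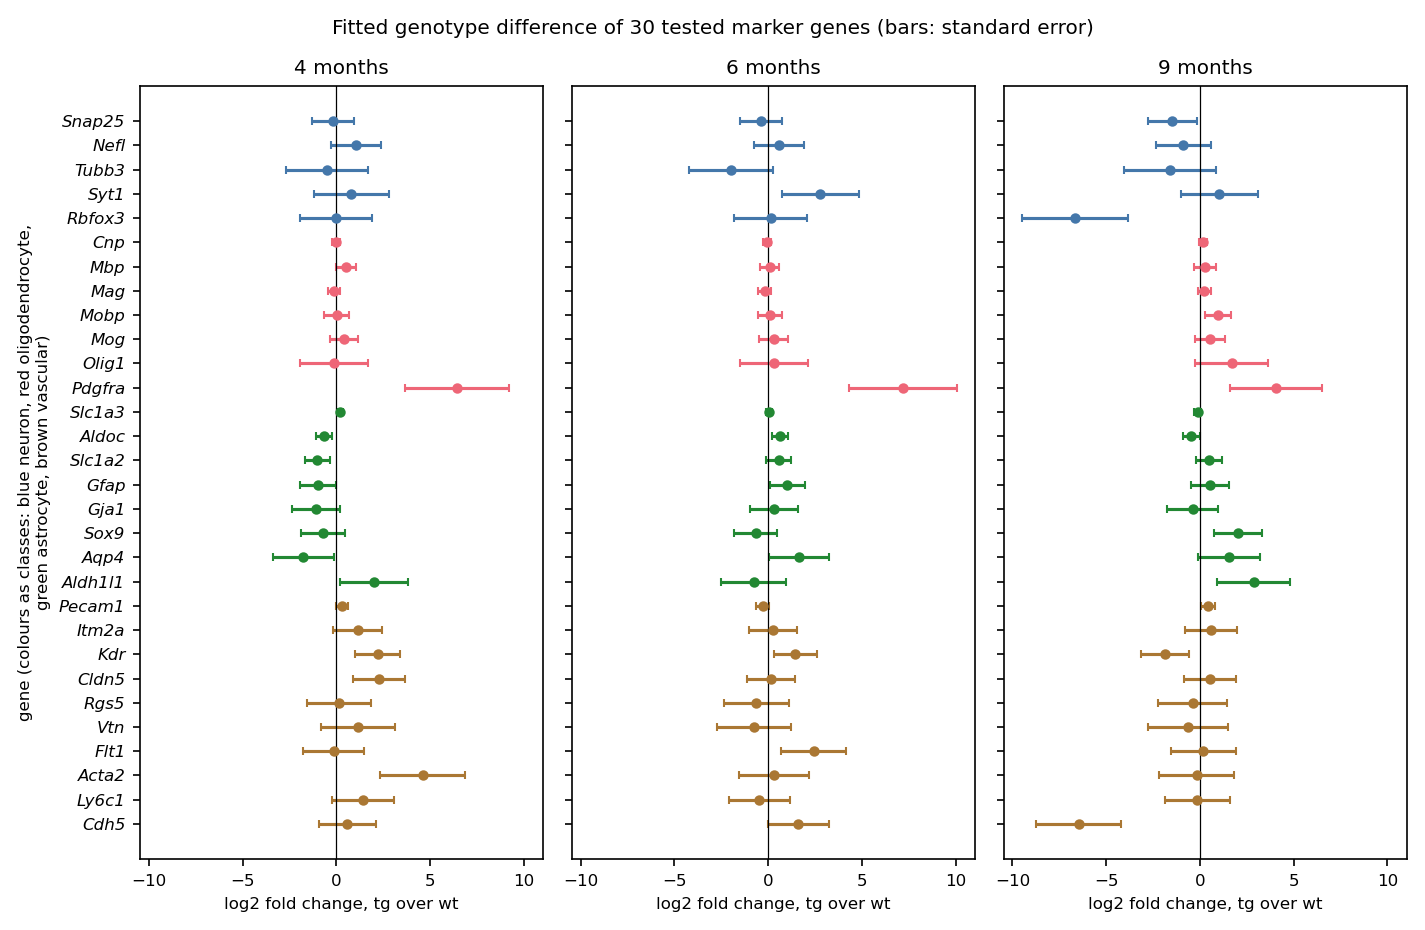
Fitted log2 fold change of tg over wt (x axis) with its standard error for the 30 tested marker genes (rows, coloured by class) at 4, 6 and 9 months. Cnp, Slc1a3 and Mag stay near 0 with short bars. Pdgfra at 4 and 6 months and Rbfox3 and Cdh5 at 9 months lie far from 0 because 1 group is at 0 counts, so their fitted values are no estimate of size.

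The genotype difference was also compared between ages. None of the 30 markers and no other gene had an adjusted p under 0.05 for a change in that difference between 4 and 6, 6 and 9 or 4 and 9 months (edgeR, 0% of genes in each). At an unadjusted p under 0.05 there was 1 marker from 4 to 6 months (Aldoc, 4.23% of all genes), 2 from 6 to 9 months (Rbfox3 and Cdh5, 5.28%) and 3 from 4 to 9 months (Rbfox3, Cdh5 and Kdr, 3.92%). DESeq2 and limma-voom called none of the 30. Of all genes DESeq2 called 13, 23 and 14 for these changes (4 to 6, 6 to 9, 4 to 9 months).

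Comparisons of ages within a genotype gave more markers with a small unadjusted p than those of genotype, though none of the 30 had an adjusted p under 0.05 in any of the 6 age comparisons (edgeR). The share of all genes called was 0% in the 3 comparisons of wt and from 4 to 6 months in tg, 0.00631% from 6 to 9 months in tg and 0.12% from 4 to 9 months in tg. At an unadjusted p under 0.05 the counts in wt were 4 of 30 from 4 to 6 months (7.72% of all genes), 2 from 6 to 9 months (6.74%) and 3 from 4 to 9 months (6.95%). In tg they were 6 of 30 (10.5%), 1 (6.18%) and 5 (6.56%) in the same order. The comparisons of wt and of tg share no libraries, while those within a genotype share the libraries of each age. The labels name no sorting days or batches, and their part in differences between ages was not tested.

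The myelin genes Mbp and Mobp had higher means at 6 than at 4 months in both genotypes, without passing the adjustment. Mobp averaged 4.68 ± 1.93 CPM at 4 months and 27.1 ± 18.1 CPM at 6 months in wt, and 4.76 ± 1.78 and 29.2 ± 28.1 CPM in tg (SD, n = 4 each). Its log2 fold change was 2.53 ± 0.69 in wt and 2.61 ± 0.69 in tg (SE, edgeR, unadjusted p = 0.0014 and 0.0011, adjusted p = 0.61 and 0.15). That of Mbp was 1.76 ± 0.54 and 1.32 ± 0.53 (unadjusted p = 0.0038 and 0.022, adjusted p = 0.61 and 0.38). Between 4 and 6 months the ranges overlapped in both genotypes, since wt replicate 3 and tg replicate 1 at 6 months, and for Mbp also tg replicate 2, lay within the range of 4 months. Without tg 6 months replicate 3 the log2 fold change in tg was 1.70 for Mobp and 0.70 for Mbp. In wt at 9 months Mobp averaged 7.83 ± 2.45 CPM, and the log2 fold change from 6 to 9 months was -1.79 ± 0.67 (unadjusted p = 0.014, adjusted p = 0.68). In tg at 9 months Mobp averaged 15.4 ± 15.07 CPM (SD, n = 3). Its log2 fold change from 4 to 9 months in tg was 1.69 (edgeR, adjusted p = 0.69), and 0.49 without tg 9 months replicate 3. Cnp and Mag, of the same class, had log2 fold changes from 4 to 6 months between -0.09 and 0.07.

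Pecam1 had lower values at 9 than at 4 months in both genotypes, again without passing edgeR's adjustment. It averaged 55.3 ± 9.77 CPM at 4, 42.8 ± 5.89 CPM at 6 and 20.4 ± 10.5 CPM at 9 months in wt (SD, n = 4 each). In tg it averaged 68.7 ± 26.8, 35.0 ± 7.69 (n = 4 each) and 27.5 ± 10.6 CPM (n = 3). From 4 to 9 months the log2 fold change was -1.44 ± 0.35 in wt and -1.32 ± 0.38 in tg (SE, edgeR, unadjusted p = 0.00043 and 0.0022, adjusted p = 0.34 and 0.31). DESeq2 gave an adjusted p of 0.02 in wt and 0.042 in tg for the same comparisons. Other vascular genes had other values in wt, where 9 of the 10 tested markers had a higher fitted level at 9 than at 4 months (50.2% of all genes). In tg 6 of 10 were higher (49.3% of all genes). Means in tg went down, like Pecam1, for Kdr (4.745 CPM at 4 and 2.361 CPM at 9 months) and Cdh5 (1.131 and 0 CPM). Itm2a also had a lower mean in tg at 9 months (5.631 and 4.171 CPM). From 4 to 9 months the log2 fold change in wt was 3.05 ± 1.23 for Kdr (SE, edgeR, unadjusted p = 0.021, adjusted p = 0.70), with no overlap between the libraries, and 0.11 ± 1.30 for Itm2a (adjusted p = 1).

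Slc1a3 had lower values in tg at 6 and 9 months than at 4 months. It averaged 447 ± 47.9 CPM at 4, 312 ± 65.5 CPM at 6 (SD, n = 4 each) and 325 ± 15.8 CPM at 9 months (n = 3), with log2 fold changes of -0.52 ± 0.17 and -0.46 ± 0.18 (SE, edgeR, unadjusted p = 0.0054 and 0.020, adjusted p = 0.25 and 0.65). Limma-voom gave adjusted p-values of 0.038 and 0.026. In wt the means were 391 ± 40.05, 302 ± 83.4 and 355 ± 39.4 CPM (n = 4 each), with log2 fold changes of -0.37 ± 0.17 from 4 to 6 months and -0.14 ± 0.17 from 4 to 9 months (SE, edgeR, unadjusted p = 0.037 and 0.41, adjusted p = 0.63 and 0.98). The genotypes were not shown to differ in this, since the change in the genotype difference of Slc1a3 from 4 to 9 months was -0.32 ± 0.24 (edgeR, adjusted p = 1). Other astrocyte genes had fitted differences of the opposite sign in tg. The log2 fold change was 1.65 ± 0.70 for Slc1a2 from 4 to 9 months and 1.36 ± 0.43 for Aldoc from 4 to 6 months (SE, adjusted p = 0.71 and 0.24 with edgeR, and 0.032 for Aldoc with DESeq2). The summed microglial markers averaged 57350 ± 6497 CPM at 4 months (SD, n = 4) and 43780 ± 3819 CPM at 9 months (n = 3) in tg, and their part in these differences was not tested.

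**Figure D5:**
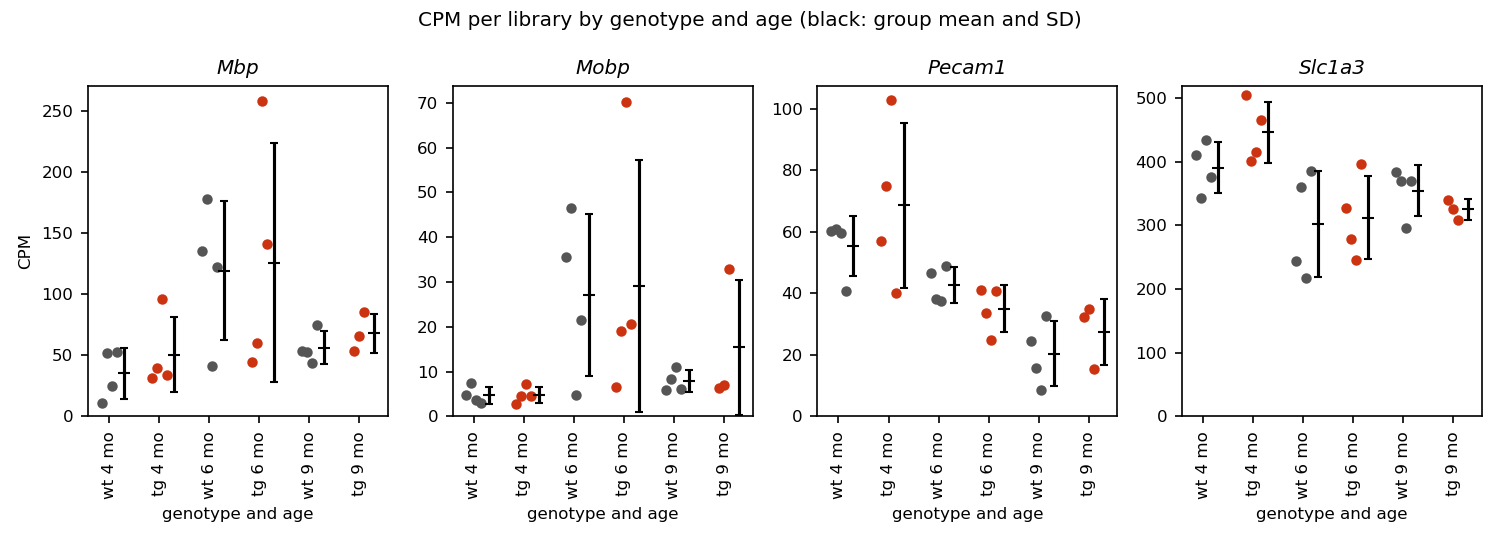
CPM of Mbp, Mobp, Pecam1 and Slc1a3 in each library (points, grey wt, red tg) by genotype and age, with group mean and SD in black. The highest Mbp and Mobp value of each genotype is from 6 months, with 1 or 2 libraries per group of that age staying low. Mobp in tg 9 months replicate 3 (32.8 CPM) lies above every tg library of 6 months except replicate 3. All Pecam1 values of 9 months lie below those of 4 months.

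By overlap of libraries, the age comparisons gave few separated markers. In wt there was none from 4 to 6 months (3.6% of all genes), 2 from 6 to 9 months (Pecam1 lower and Cdh5 higher, 2.49%) and 2 from 4 to 9 months (Pecam1 lower and Kdr higher, 4.21%). In tg there was 1 from 4 to 6 months (Slc1a3 lower, 8.27%), none from 6 to 9 months (7.76%) and 5 from 4 to 9 months (Slc1a2, Aqp4 and Olig1 higher, Slc1a3 and Pecam1 lower, 11%). Olig1, a transcription factor of the oligodendrocyte lineage, averaged 0.842 CPM over all libraries.

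Whether leading markers varied together across libraries was also examined. Over 28 pairs of the 8 leading genes (the 2 most abundant of each class), log2(CPM + 1) was correlated across 23 libraries, and no pair had an adjusted permutation p under 0.05 (lowest 0.23 for Pearson's r and 0.13 for Spearman's rho). The pair within each class had a Pearson r of -0.22 for Snap25 and Nefl, 0.14 for Cnp and Mbp, -0.21 for Slc1a3 and Aldoc and -0.05 for Pecam1 and Itm2a. Mbp was set against 3 other myelin genes after their values were seen. With Mobp it had a Pearson r of 0.82 and a Spearman rho of 0.82, each with a two-sided permutation p of 1e-05, the smallest that 100000 permutations can give, and 0.00031 after adjustment over 31 pairs. Leaving out the 2 libraries farthest from the median of Mbp gave r = 0.83, and centring each group on its mean gave r = 0.69. The centred value is pooled over all groups and was not tested. It does not show the relation in each group, since in some groups Mbp and Mobp did not rise together. Mobp was chosen after its values were seen, and the adjustment over pairs does not correct for that choice. With Mag r was 0.48 and rho 0.46 (adjusted p = 0.15 and 0.22), and with Mog, a minor glycoprotein of the myelin surface, r was 0.42 and rho 0.38 (adjusted p = 0.20 and 0.26).

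A single library carried many of the highest values. In tg 6 months replicate 3 12 of the 33 genes were at their highest of all 23 libraries and 16 were among their 3 highest, spread over all 4 classes: Syt1, Nefl, Mbp, Mobp, Pdgfra, Gfap, Aqp4, Cldn5, Kdr, Acta2, Ly6c1 and Itm2a. Cnp (84.9 CPM) and Slc1a3 (245 CPM) were not raised in it. The share of all genes that were highest in this library was not computed, so these counts cannot be set against it. The library also had the lowest total (8147240 counts) and the highest TMM factor (1.121), whose part was not tested. At the other end, wt 6 months replicate 3 had 15 of the 33 genes at 0, the lowest sum and the fewest choroid plexus counts, and yet the highest sum of the neuron class. It also had the fewest detected genes of all 23 libraries (14129), whose part was not tested. The library with the most detected genes, tg 4 months replicate 1 (18821), had 1 of the 33 at 0. Without both of these libraries none of the 30 markers had an adjusted p under 0.05 in any of the 12 comparisons.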

How the data were processed

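Raw read counts per gene, as whole numbers, were deposited by the authors as a separate table for each of 24 libraries and once more in a table of the whole series. Per the submitters' processing notes the build was GRCm39, and the tools named are HTSeq 0.11.0, Picard 2.13.2, SAMtools 1.10, TopHat, cutadapt 2.10 and FastQC 0.11.9. Not given in the sources used here were each tool's role, the annotation, the strand setting and any removal of duplicates. The library files were used. All 33 markers had the same counts in both kinds of table.

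Libraries were grouped by genotype and age from the labels. The library with 6325 counts was left out, leaving 23 with 8147240 to 14198506 counts, where 3 counts are 0.204 to 0.332 CPM. Floors cover counting error only. In R 4.3.3, edgeR 4.0.16 was run with filterByExpr by group, TMM factors and a robust quasi-likelihood fit of 6 group means, giving 15852 tested genes and a biological coefficient of variation of 67.0%. P-values were adjusted over all tested genes (Benjamini-Hochberg) within each of 12 comparisons. Fold changes with a group at 0 are given as bounds against 3 counts per library. The fit was tested on simulated data, where a pass was required only at a spread well below that of these data. How many true changes it finds at the spread of these data is not reported here. Correlations used 100000 permutations.

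The members and the other marker lists were chosen with earlier results of these data known. Genes described library by library were the 2 most abundant of each class and those with an unadjusted p under 0.05 for genotype or its change with age. Genes outside this rule, such as Mobp and the age differences, were chosen after their values were seen. Alternatives were limits on low counts, RLE factors, library totals, DESeq2 1.42.0, limma-voom (limma 3.58.1) with quality weights, a replicate block, all 24 libraries, only the libraries compared, a limit of 0.01 and each library left out in turn. A fit of 21 libraries, 3 pairs of Mbp and bounds without the highest library were added after seeing the data. A gene of the microglial list and one of the further oligodendrocyte list are not reported here, and the sums and counts of these lists are without them.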

Additional observations from a re-analysis of the deposited data

Results flagged for a closer look

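Of 83 groups of 4 libraries tested for a library far from the others, 8 held one. A chance rate of about 1 in 20 cannot be set against this count. Some flagged groups had counts in only 1 library, where any value stands apart. Some of the flagged genes had also been chosen by their p-values. In tg at 6 months Cnp was 123.6 CPM in replicate 4 against 84.9 to 91.5 CPM in the other libraries. In tg at 4 months Mbp was 96.3 CPM in replicate 3 against 31.9 to 39.5 CPM. In wt at 9 months Slc1a3 was 296.6 CPM in replicate 3 against 370 to 384 CPM. In wt at 4 months Pecam1 was 40.69 CPM in replicate 4 against 59.5 to 60.9 CPM.

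The other 4 concern genes at or near 0. Pdgfra was 6.896 CPM in tg 6 months replicate 3 and 0.407 CPM in wt 9 months replicate 3, with the other libraries of each group at 0. Rbfox3 was 1.154 CPM in wt 6 months replicate 4, with the others at 0. Cdh5 was 1.183 CPM in tg 6 months replicate 1 against 0 to 0.11 CPM.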

How the results depend on the processing

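No marker had an adjusted p under 0.05 with other filters, RLE factors, library totals, a limit of 0.01, the replicate block, all 24 libraries, only the libraries compared, 21 libraries or any 1 library left out. DESeq2 called 1 marker each in wt from 4 to 9 months (Pecam1, -1.42), tg from 4 to 6 months (Aldoc, 1.38) and tg from 4 to 9 months (Pecam1, -1.31). Of all genes it called 53, 320 and 132 in the same order. Limma-voom called 1 each in tg from 4 to 6 months (Slc1a3, -0.60) and from 4 to 9 months (Slc1a3, -0.54). Of all genes it called 88 and 244 there. The cause was not tested.

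Of the named log2 fold changes only Pdgfra at 6 months lost its direction, with a range of 0 (without tg 6 months replicate 3) to 7.60 over the fits without 1 library, and 0 with 21 libraries. Rbfox3 failed the filter in 3 of the 23 fits without 1 library and has no value there. There were 18 markers that averaged 1 to 20 CPM and 8 under 1 CPM, which limits the precision of their fold changes.

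Counts of all genes called depended more on the setting. From 6 to 9 months in tg the count of 1 became 0 at a limit of 0.01, with the replicate block, all 24 libraries, only the libraries compared and 21 libraries, and 2 with limma-voom. From 4 to 9 months in tg the count of 19 became 5 at a limit of 0.01, 12 with no filter, 30 with library totals, 10 with the replicate block, 5 with all 24 libraries, 32 with 21 libraries and 244 with limma-voom. From 4 to 6 months in tg the count of 0 became 40 with library totals, 1 with the replicate block, 3 with only the libraries compared and 88 with limma-voom. DESeq2 called 6, 34 and 19 genes for tg against wt at 4, 6 and 9 months, 28, 31 and 53 in wt (4 to 6, 6 to 9, 4 to 9 months), 320, 39 and 132 in tg, and 13, 23 and 14 for the change of the genotype difference (4 to 6, 6 to 9, 4 to 9 months). For tg against wt limma-voom called 11 at 9 months, and the fit of only the libraries compared 1 at 6 months and 1 for the change from 4 to 6 months.

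Shared replicate numbers did not pair the libraries. Same-numbered libraries had correlations of -0.23 to 0.098 over 46 pairs. The replicate block gave 1 gene each for tg against wt at 6 and 9 months, wt from 6 to 9 months and the change of the difference from 6 to 9 months, and 2 in wt from 4 to 9 months.

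Leaving out 1 library gave 0 genes for tg against wt at 4 months, 0 to 1 at 6 and 0 to 4 at 9 months. In wt it gave 0 from 4 to 6, 0 to 2 from 6 to 9 and 0 from 4 to 9 months. In tg it gave 0 to 38 from 4 to 6 (38 without wt 6 months replicate 3), 0 to 4 from 6 to 9 and 5 to 29 from 4 to 9 months (5 without tg 4 months replicate 1, 29 without wt 6 months replicate 3). Changes of the difference gave 0 to 1 in each case.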
